A study of Mus musculus with 36 samples.

Results

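In the adult mouse brain, 4 libraries of the sorted population named pNSC (primed neural stem cells) were set against 4 libraries of the population named qNSC (quiescent neural stem cells). The comparison covers the 15824 genes of 19909 in the deposited table with a log2 value of 0 or more in 3 or 4 of the libraries of pNSC, of qNSC or of both. All differences are pNSC minus qNSC, so a positive value is higher in pNSC. Both populations came from the subependymal zone (SEZ), the germinal layer along the lateral ventricles, of C57BL/6 mice aged 8 weeks, with no transgene or treatment named for either. They were isolated by flow cytometry from tissue homogenate, and the gates that separate them are not given in these sources. The labels call the libraries of a group biological replicates without naming animals or pools, so a p-value reflects only how far these libraries differ among themselves, which may be technical. The series holds 36 libraries in all, of which 28 are from 8 freshly sorted populations.

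Adult neural stem cells of this niche are astrocyte-like cells. Most are quiescent: they have left the cell cycle and keep glial transporters, channels and metabolic enzymes. When they activate they re-enter the cycle, raise ribosome and protein production, express proneural factors, and give rise to neuroblasts that migrate to the olfactory bulb. Primed cells are described as an intermediate state, still glial but closer to division. In bulk libraries such as these, fewer cells of a type and less RNA per cell cannot be told apart.

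Library 1 of each group stood apart from the rest. In pNSC 1 a total of 2319 genes lay at the library's floor, its lowest value, against 1275 to 1566 in pNSC 2, 3 and 4. In qNSC 1 a total of 3932 genes lay at the floor of -2.18, against 1159 to 1876 in qNSC 2, 3 and 4. The next value above the floor of qNSC 1, -0.01, was shared by 583 genes. Across genes, pNSC 1 and qNSC 1 had a mean correlation with their own group of 0.881 and 0.860, and the other 6 libraries had 0.913 to 0.925. Read totals are not in the table, so depth is unknown. Counts are therefore given below with all 8 libraries and, where it bears on them, without both libraries 1.

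Of the 15824 genes, 914 (5.78%) were called higher in pNSC and 597 (3.77%) were called lower, 9.55% in all, by limma at a Benjamini-Hochberg adjusted p under 0.05. The median difference of all genes was -0.06 on the log2 scale. The called genes that were higher had a median difference of 1.34 (0.37 to 4.93), and those that were lower had a median of -1.01 (-0.35 to -4.69). Without both libraries 1, 928 genes were called higher and 665 lower, and 1185 of the 1511 calls were shared. When any 1 library was left out, 300 of the 1511 (256 higher, 44 lower) stayed called in all 8 such fits. All 1511 kept their sign, which was nearly fixed in advance because the calls were made on the same libraries. Groups did not overlap in 10.8% of all genes with pNSC higher and in 11.7% with pNSC lower. Of genes that entered through 1 group alone, 62 of 716 that reached the minimum only in pNSC were called higher and 14 of 668 that reached it only in qNSC were called lower. These genes could differ mainly in that direction, and they support nothing further.

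The pNSC libraries differed in how far they lay from qNSC. Over the 914 genes called higher, the median of library minus qNSC mean was 1.78 in pNSC 1, 1.28 in pNSC 2, 1.27 in pNSC 3 and 0.92 in pNSC 4. Over the 597 genes called lower, it was -1.43, -1.03, -0.91 and -0.61 in the same libraries. pNSC 1 was the highest library for 719 of the genes called higher and the lowest for 438 of those called lower.

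**Figure D1:**
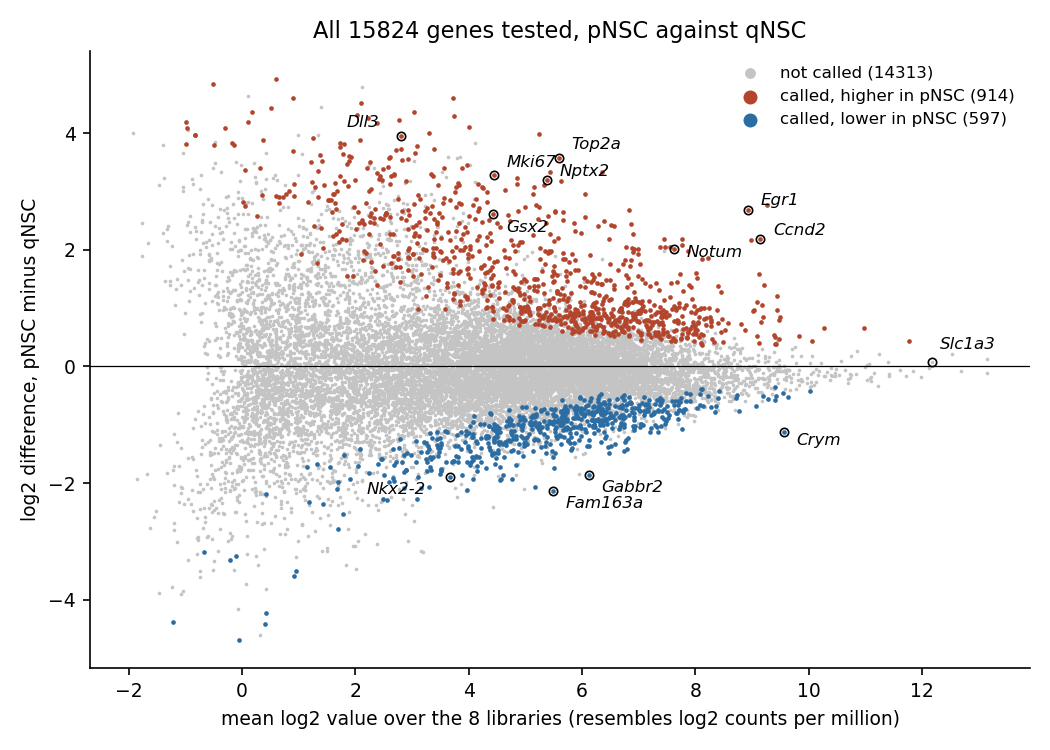
Difference between pNSC and qNSC (vertical axis, log2) against the mean log2 value over the 8 libraries (horizontal axis) for each of the 15824 genes; red points were called higher in pNSC (914), blue points called lower (597), grey points not called. Called differences reach further above 0 than below it, and Slc1a3, near the top of the level range, lies close to 0.

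Most of the largest increases named here were in genes of cell division. A value in parentheses after a gene name, here and below, is its log2 difference. The 12 largest increases, among 700 called genes with clear expression (mean of 4 or more in the group where the gene was higher), no library at its floor and no overlap between groups, included Pbk, Dll3, Top2a, Ccnb1, Kif18b, Cdca2, Ube2c, Mcm5, Ier2, Aurka and Mki67, and the 12 had log2 differences of 3.27 to 3.98. Among them, Dll3 is a Notch ligand family member and Ier2 an immediate early gene. In qNSC 1, Pbk, Dll3, Kif18b, Cdca2 and Aurka lay at -0.01, the first step above that library's floor, so the sizes of their differences depend on that step. In all, 10 of the 12 stayed called in all 8 fits without 1 library. Pbk reached an adjusted p of 0.0769 without pNSC 1, and Dll3 reached 0.0597 without pNSC 2. The 12 largest decreases, chosen in the same way among 448 genes, ran from -2.14 to -1.86 and were in Fam163a, Sult1a1, Nkx6-2, Nat8f5, Olfml2a, Kank1, B3galt2, Ucp3, Nkx2-2, Slc25a18, Grid1 and Gabbr2. Fam163a, Nkx6-2, Olfml2a and Nkx2-2 stayed called in all 8 fits, and the other 8 lost the call in at least 1. Nat8f5 belongs to a family of near-identical copies, so its reads may be shared with them.

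A tight and large difference was seen in Nptx2, a secreted pentraxin that clusters glutamate receptors at synapses, singled out after its values were seen. Its log2 values were 7.33, 6.99, 6.99 and 6.60 in pNSC 1 to 4, against 3.66, 4.03, 4.05 and 3.40 in qNSC 1 to 4. The groups lay far apart and each was tight. The difference was 3.19 ± 0.22 (SE), a 9.14-fold higher level, with the smallest adjusted p of the comparison (limma, 0.000387).

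Cell division was the clearest difference. Mki67, which encodes the proliferation marker Ki-67, had log2 values of 7.23, 5.37, 6.39 and 5.33 in pNSC 1 to 4, against 2.16, 2.51, 3.10 and 3.46 in qNSC 1 to 4. It averaged 6.08 ± 0.91 in pNSC and 2.81 ± 0.586 in qNSC (SD, n = 4 each). Every pNSC library lay above every qNSC library, and the difference of 3.27 ± 0.45 (SE) had an adjusted p of 0.00586 by limma. Top2a, the topoisomerase that untangles sister chromatids, had 8.15, 7.55, 7.25 and 6.59 in pNSC, against 2.02, 4.34, 4.27 and 4.61 in qNSC. Within qNSC, library 1 lay below the other 3 for Top2a.

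Promoter sequences of 4 cell cycle genes are shown because such genes are known to carry shared promoter words. Pola1 is shown for its sequence only, and its difference is not given here. Genes expressed in G2 and mitosis often hold a CHR element (TTTGAA) near CCAAT boxes, and genes of DNA replication often hold an E2F word. Each stretch is the 150 bases before the RefSeq start (GRCm38.p6), all on the minus strand, printed 5′ to 3′. Capitals mark CHR and CCAAT words, and in the 2 replication genes also E2F words (TTTCCCGC, TTTCGCGC, TTTGCCGC or TTTGGCGC), on either strand.
Top2a (chr11:99024190-99024339): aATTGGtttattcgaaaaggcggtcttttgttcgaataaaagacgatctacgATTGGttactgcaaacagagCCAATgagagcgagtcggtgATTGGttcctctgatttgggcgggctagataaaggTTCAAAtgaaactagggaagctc
Mki67 (chr7:135716380-135716529): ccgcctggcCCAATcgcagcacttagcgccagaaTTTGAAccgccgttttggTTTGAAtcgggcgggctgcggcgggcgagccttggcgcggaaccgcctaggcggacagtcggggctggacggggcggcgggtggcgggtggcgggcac
Mcm6 (chr1:128359706-128359855): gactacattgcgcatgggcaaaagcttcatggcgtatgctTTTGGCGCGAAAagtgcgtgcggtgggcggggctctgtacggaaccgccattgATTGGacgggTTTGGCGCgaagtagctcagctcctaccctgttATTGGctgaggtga
Pola1 (chrX:93632156-93632305): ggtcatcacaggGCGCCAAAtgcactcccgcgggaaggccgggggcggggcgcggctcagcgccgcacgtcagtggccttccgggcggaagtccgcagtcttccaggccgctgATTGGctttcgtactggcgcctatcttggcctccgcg
The first 2 E2F words of Mcm6 overlap. Over whole windows of 250 bases before to 50 after the start, CHR was found in 40 of the 62 kinetochore and spindle genes with a window (64.5%), against 11.6% of the 10821 tested genes with one. CHR and CCAAT together were found in 33 of the 62 (53.2%), against 5.05% of tested genes. An E2F word was found in 18 of 51 replication genes (35.3%), against 4.05% of tested genes. Replication genes held CHR in 7 of 51, and kinetochore and spindle genes held an E2F word in 5 of 62. Windows were available for 62 of 71 and 51 of 61 list members and for 68.5% of tested genes. These are matches of letters, and no binding was measured.

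Of 23 origin licensing genes tested, 10 were called higher and none lower (43.5%), with a median difference of 1.39. Mcm5, a subunit of the replicative helicase, had 8.17, 7.16, 7.09 and 5.97 in pNSC, against 3.08, 4.22, 3.44 and 4.31 in qNSC, a 10.1-fold higher level. The groups did not overlap, and pNSC 4 was the lowest of its group. Its partners Mcm3 (2.65), Mcm2 (2.56) and Mcm6 (2.05) were also called higher and stayed so without any 1 library. Cdc45 and Gins2, which join Mcm proteins in the active helicase, differed by 1.33 and 1.24 with adjusted p of 0.0684 and 0.0507. The count of 10 became 6 without qNSC 4 or pNSC 1 and 5 without pNSC 2 or pNSC 3.

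Of 38 genes of the replication fork and nucleotide supply, 26 were called higher and none lower (68.4%), and all 38 had a higher mean in pNSC (median 2.04). Rrm2, the regulated subunit of ribonucleotide reductase, had 9.16, 8.27, 8.44 and 6.80 in pNSC, against 5.39, 5.69, 5.38 and 5.46 in qNSC. Each pNSC library exceeded all qNSC libraries by more than 1 log2 unit. Uhrf1 (2.73), Pold1 (2.09) and Dnmt1 (2.14), which copy DNA or its methylation marks, behaved alike. The count was 24 without both libraries 1. It was 15 without qNSC 2 or pNSC 1, 11 without qNSC 3, 12 without qNSC 4, 9 without pNSC 2 and 10 without pNSC 3.

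Recombination repair and checkpoint genes gave fewer calls, 4 of 23 higher and none lower, with a median of 1.26. They were Rad51ap1 (3.88), Chek1 (4.26), Brca1 (2.60) and Exo1 (2.47). Of the 23, 10 had a library at its floor. The count was 8 without both libraries 1, 7 without qNSC 1 or pNSC 4, 2 without qNSC 4 and 1 without qNSC 3, pNSC 2 or pNSC 3.

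Among cyclins, cyclin-dependent kinases and the E2F network, 18 of 33 were called higher and none lower (54.5%, median 2.08). Ccnd2, the D-type cyclin that starts the cycle, had 11.37, 10.11, 10.11 and 9.34 in pNSC, against 8.03, 8.22, 7.93 and 8.04 in qNSC. The qNSC libraries lay within 0.3 of each other and below all pNSC libraries. Ccna2, the cyclin of S phase and G2, had 7.72, 6.85, 7.11 and 6.01 in pNSC, against 4.23, 4.22, 4.83 and 4.38 in qNSC, and its groups were also apart. The mitotic cyclin Ccnb1 differed by 3.45 ± 0.32 (SE, adjusted p 0.00245 by limma). Ccnb1, Ccna2 and Foxm1 (3.14), a transcription factor of mitotic genes, were called in every fit without 1 library. The count was 20 without both libraries 1, 9 without qNSC 3, 6 without pNSC 2 and 8 without pNSC 3.

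Of the inhibitors of these kinases, 1 of 6 was called, and it was higher. Cdkn1a (p21) had 5.17, 4.25, 4.94 and 3.88 in pNSC, against 0.47, 2.48, 1.56 and 3.03 in qNSC, a difference of 2.67 ± 0.54 (SE, adjusted p 0.019 by limma). It was not called without qNSC 3, pNSC 2 or pNSC 3, where its adjusted p reached at most 0.0549. Cdkn1b (p27) had 5.68, 5.38, 5.79 and 5.31 in pNSC and 5.49, 5.21, 4.99 and 5.09 in qNSC, and its groups overlapped (adjusted p 0.255).

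Kinetochore and spindle checkpoint genes, which attach chromosomes to the spindle and delay their separation, were called higher in 22 of 26 cases and lower in none (84.6%, median 2.67). Bub1b, a checkpoint kinase, had 6.51, 5.27, 6.13 and 4.99 in pNSC, against 2.86, 2.44, 2.45 and 2.64 in qNSC. The lowest pNSC library was above the highest qNSC library by over 2 log2 units. Cenpf (3.06), Birc5 (2.79) and Cdca8 (2.26) were also called in every fit without 1 library. The count was 22 without both libraries 1, 14 without qNSC 3 or qNSC 4, 9 without pNSC 2 and 12 without pNSC 3.

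Spindle, condensin and cytokinesis genes were called higher in 36 of 45 cases and lower in none (80%, median 3.08). Tpx2, which nucleates spindle microtubules, had 7.40, 6.03, 6.51 and 5.95 in pNSC, against 3.08, 3.20, 3.40 and 3.27 in qNSC. Prc1 (3.11) and Racgap1 (3.18), which build the midzone where the cell divides, had equally separate groups. In 14 of the 45 genes a library lay at its floor. Without both libraries 1 the count was 41 and the median 2.34, and without pNSC 2 or pNSC 3 it was 22.

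**Figure D2:**
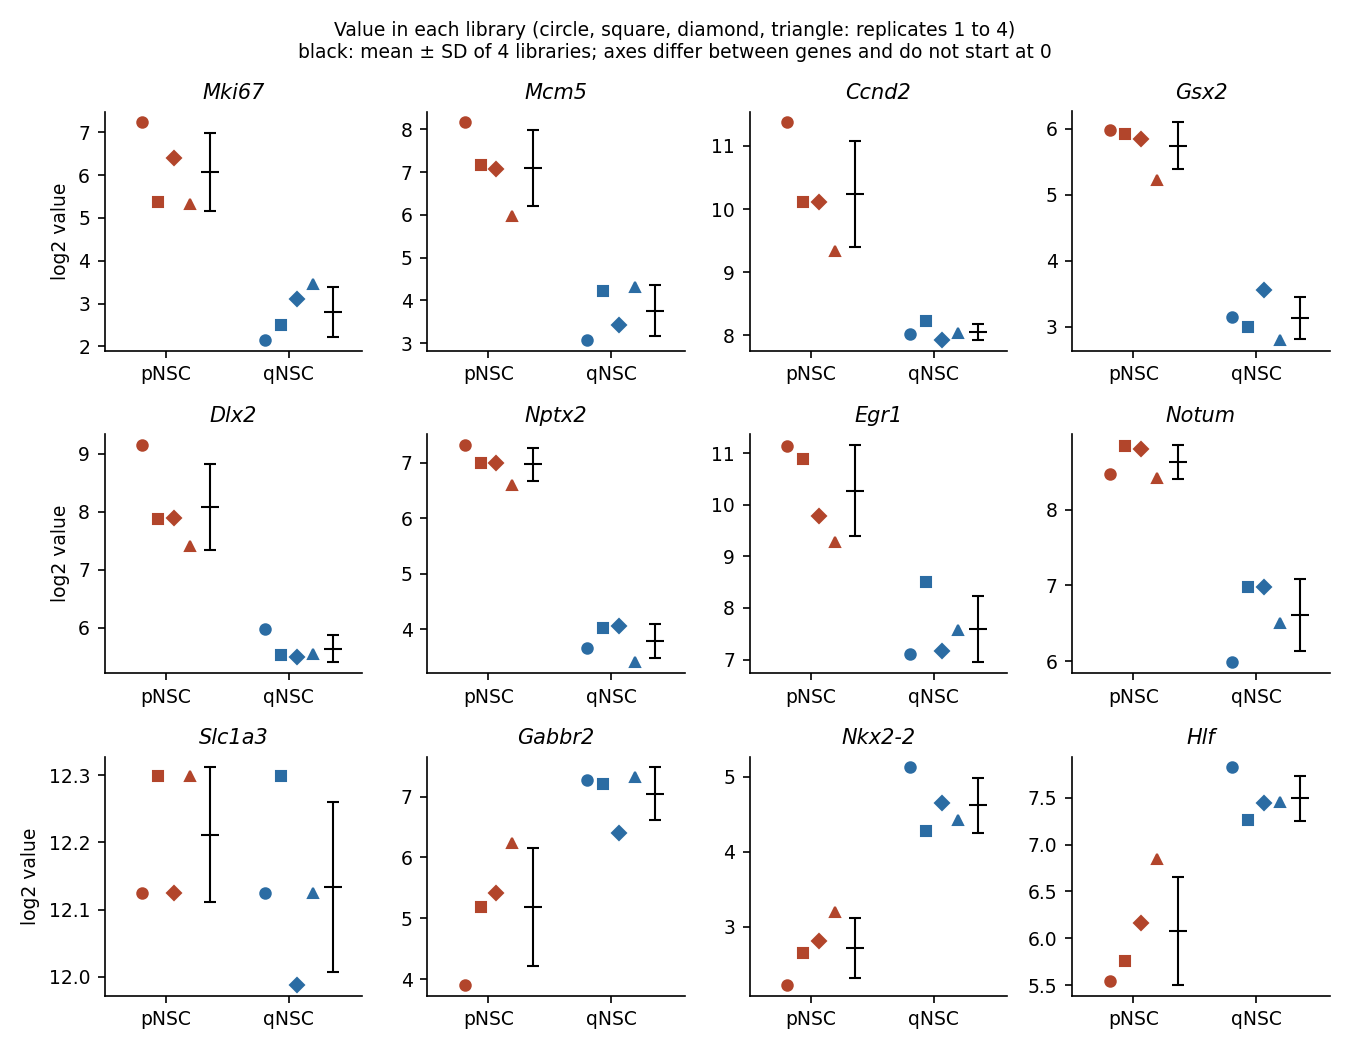
Log2 value of 12 genes in each library, pNSC left (red) and qNSC right (blue), with 1 symbol per replicate number and the mean ± SD of 4 libraries in black; axes differ between genes. Mki67, Mcm5, Ccnd2, Gsx2, Dlx2, Nptx2, Egr1 and Notum lie wholly higher in pNSC, Gabbr2, Nkx2-2 and Hlf wholly lower, and the groups overlap for Slc1a3.

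A list of immediate early and dissociation stress genes, below the immediate early list, had 13 of 35 called higher and none lower (37.1%, median 1.57). Immediate early genes are transcribed within minutes of a stimulus and also during tissue dissociation. Egr1 had 11.15, 10.88, 9.79 and 9.28 in pNSC, against 7.11, 8.49, 7.17 and 7.57 in qNSC, a 6.44-fold higher level (adjusted p 0.00802 by limma). pNSC 1 and 2 were the highest, and the groups did not overlap. Klf6 (1.12), Btg2 (2.19) and Jund (1.38) were called in every fit without 1 library. Fosb and Atf3 differed by 3.33 and 3.16, and their adjusted p were 0.0862 and 0.134, with qNSC 1 at its floor in both. The list mean was 5.60, 6.38, 5.70 and 5.45 in pNSC 1 to 4, against 2.91, 5.09, 3.89 and 4.61 in qNSC 1 to 4. The lowest value was that of qNSC 1, where 9 members lay at the floor. The count was 13 without both libraries 1, 8 without qNSC 3 or pNSC 3 and 7 without pNSC 2, and it was 4 with neither trend nor robust estimation of the spread. Microglia, which express many of these genes, had all 22 markers tested at a higher mean in pNSC, with none called. Without adjustment, 9 of the 22 had p under 0.05, against 29.7% of all genes. Their summed linear level was 688 to 1305 in pNSC and 355 to 1005 in qNSC. In qNSC 1, 12 of them lay at the floor and in no other library any did, and their part in the result was not tested.

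Genes of activated stem cells rose: 13 of 19 were called higher and none lower (68.4%, median 2.00). This list and the next share Sox4 and Sox11. Gsx2, a homeobox factor of the lateral wall, had 5.99, 5.92, 5.84 and 5.22 in pNSC, against 3.15, 3.00, 3.55 and 2.80 in qNSC. The groups were over 1 log2 unit apart, and the difference of 2.62 ± 0.26 (SE) had an adjusted p of 0.00245 by limma. Mycn (2.77), a growth-promoting transcription factor, and Hes6 (1.56), an inhibitor of Hes1, were also called in every fit without 1 library. The count was 15 without both libraries 1, 8 without qNSC 3 or pNSC 3 and 7 without pNSC 2.

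Proneural factors and partners gave 4 calls of 10, all higher, among them Insm1 (3.13), Helt (4.93) and Tcf3 (1.11). Insm1, a zinc finger factor of neuronal precursors, had 7.41, 6.20, 6.44 and 5.64 in pNSC, against 2.64, 3.79, 3.01 and 3.75 in qNSC. Helt had 3.65, 2.74, 2.93 and 2.95 in pNSC and lay at the floor in qNSC 1 and qNSC 3, so the size of its difference depends on the floor. Of 12 SOX factors, Sox4 (2.04) and Sox11 (2.27), both neuronal lineage factors, were called higher, also in every fit without 1 library. The stem cell factors Sox2 and Sox9 had differences of -0.00 and 0.06 with adjusted p of 0.982 and 0.626. In the MYC network, Mycn and Mycl (2.82) were called of 13, and Myc itself differed by -0.32 with an adjusted p of 0.493. Mycl was not called without any 1 of qNSC 2, qNSC 3, qNSC 4, pNSC 1, pNSC 2 and pNSC 3.

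Neuroblast and neuronal lineage genes were called higher in 19 of 38 cases and lower in none (50%, median 1.75). Dlx2, a homeobox factor of interneuron precursors, had 9.15, 7.87, 7.89 and 7.41 in pNSC, against 5.98, 5.53, 5.49 and 5.54 in qNSC. Stmn1, a microtubule regulator, differed by 1.97 and was called in every fit without 1 library. Dcx, the microtubule protein of migrating neuroblasts, had 6.43, 4.53, 5.09 and 5.10 in pNSC, against 3.30, 3.89, 3.09 and 3.42 in qNSC. pNSC 1 was the highest library for Dlx2 and Dcx. The count was 25 without both libraries 1 and 12 without qNSC 3. Whether the lineage genes came from all sorted cells or from a share of them was not tested.

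In the Notch pathway, which holds stem cells in quiescence through contact with neighbours, calls ran both ways: 5 of 26 higher and 2 lower, with a median of -0.31. Of the ligands called, Dll1 (4.60), Dll3 (3.96) and Jag1 (2.76) were higher and Dlk1 was lower. Hes6 and Mfng (3.54), a glycosyltransferase that modifies Notch, were also called higher. Dll1 had 6.18, 6.04, 6.27 and 5.56 in pNSC, against -2.18, 3.43, 1.52 and 2.89 in qNSC, where library 1 was at its floor. The effector Heyl (-1.77) and Dlk1 (-1.36), a non-canonical ligand, were called lower. The receptors Notch1 and Notch2 differed by 0.31 and -0.40, and the effectors Hes1 and Hes5 by -0.17 and 0.34, none called (adjusted p 0.156 to 0.598). The higher count was 3 without qNSC 2 or pNSC 1, 2 without qNSC 3 and 1 without pNSC 2 or pNSC 3. The lower count was 5 without pNSC 4, 1 without qNSC 1, qNSC 3, pNSC 1 or pNSC 3, and 0 without qNSC 2, qNSC 4 or pNSC 2.

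**Figure D3:**
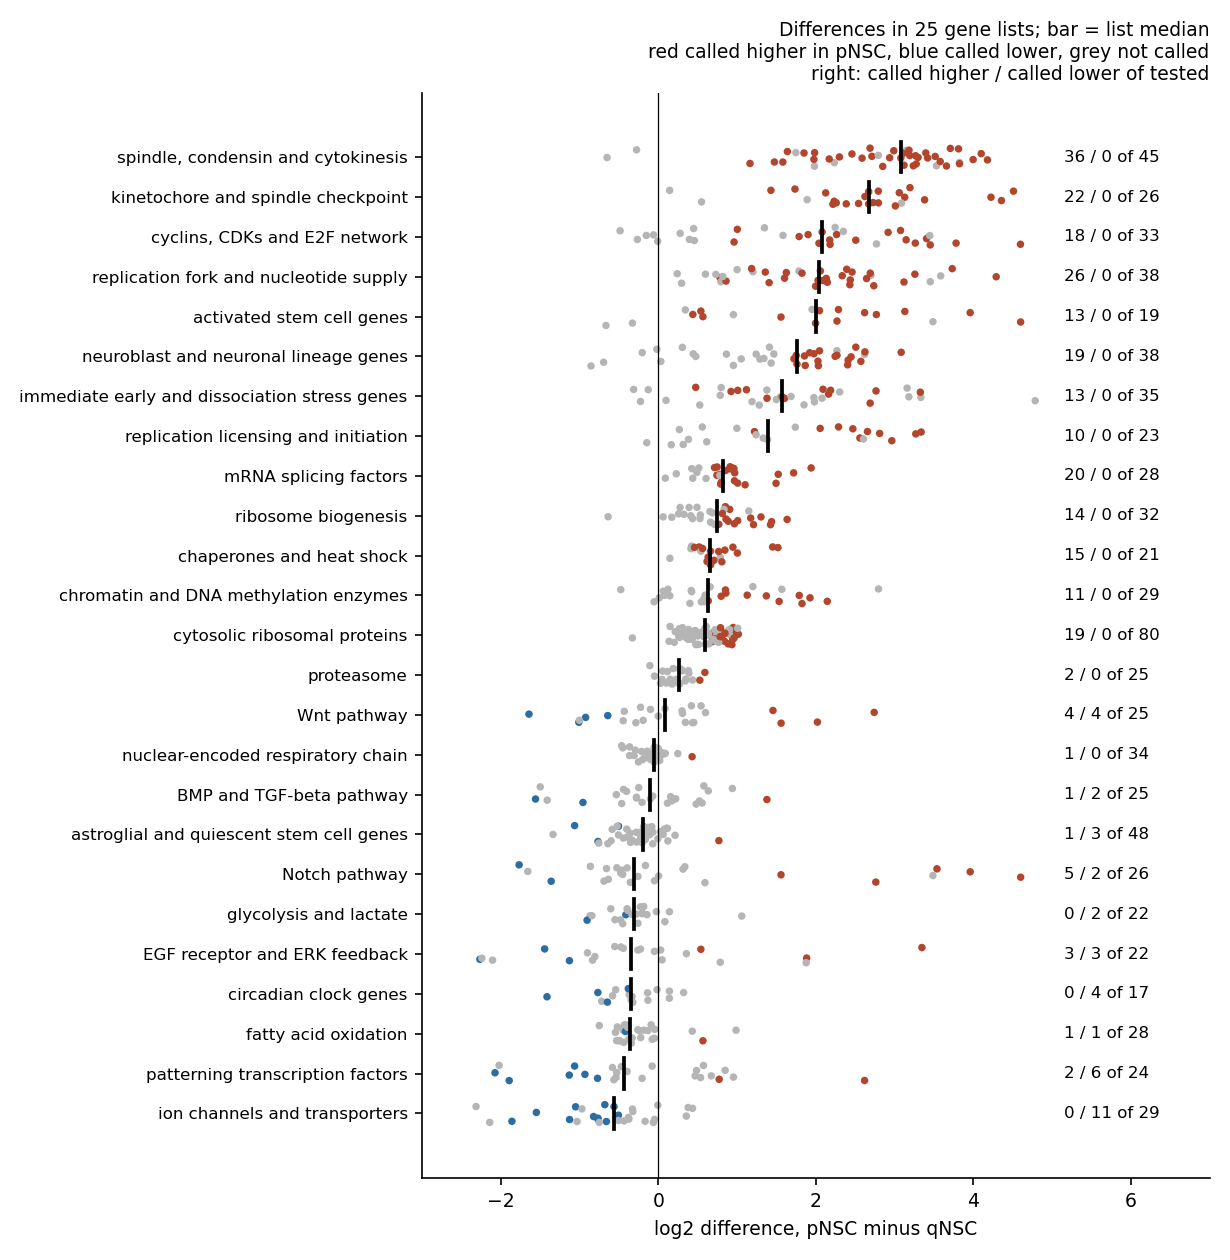
Log2 difference, pNSC minus qNSC (horizontal axis), of each tested member of 25 of the 52 gene lists. Lists run nearly in order of their median (black bar). Red points were called higher in pNSC, blue called lower, grey not called, with the counts at the right. Of the lists shown, the spindle list lies furthest right, with a median of 3.08. Ion channels and transporters lie furthest left, with a median of -0.56.

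Few astroglial genes were called. Of 48 astroglial and quiescent stem cell genes, 1 was called higher (2.08%) and 3 lower (6.25%), with a median of -0.19. Over all genes, 5.78% were called higher and 3.77% lower. The mean was lower in pNSC for 39 of the 48. By limma at an unadjusted p under 0.05, 15 were lower and 2 higher, against 29.7% of all genes in either direction. Groups did not overlap in 10 with pNSC lower and in 1 with pNSC higher, against 11.7% and 10.8% of all genes. Slc1a3, the glutamate transporter GLAST, had 12.12, 12.30, 12.12 and 12.30 in pNSC and 12.12, 12.30, 11.99 and 12.12 in qNSC. Such equal values arise because the authors' scaling gives each rank at this high level the same value in every library. The difference was 0.08 ± 0.08 (SE, adjusted p 0.52 by limma). Nfix (0.77), a factor of stem cell quiescence, was called higher, and Hopx (-1.06), the bicarbonate transporter Slc4a4 (-0.77) and the water channel Aqp4 (-0.51) lower. Aqp4 had 8.75, 9.15, 9.20 and 9.54 in pNSC, against 9.73, 9.69, 9.63 and 9.62 in qNSC. Hopx overlaps Hopxos, and without strand their reads cannot be told apart. The lower count was 9 without pNSC 4 and 0 without any of the 4 qNSC libraries or pNSC 2. The call of Nfix was lost without qNSC 2, qNSC 3, qNSC 4, pNSC 2 or pNSC 3.

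Of 29 ion channels and transporters tested, which had a median of -0.56, 11 were called lower and none higher (37.9%). Atp13a4, a P-type transport ATPase, had 4.04, 4.79, 4.99 and 5.04 in pNSC, against 6.30, 6.19, 6.09 and 6.47 in qNSC. The groups were more than 1 log2 unit apart. The cystine transporter Slc7a11 (-1.13), the glutamate receptor subunit Gria2 (-1.05) and the glycine transporter Slc6a9 (-0.82) were called in every fit without 1 library. Gabbr2, a subunit of the metabotropic GABA receptor, had 3.91, 5.19, 5.42 and 6.23 in pNSC, against 7.27, 7.20, 6.40 and 7.32 in qNSC. pNSC 4 lay close to qNSC 3, and its call was lost in 4 of 8 fits. The count was 12 without both libraries 1, 17 without pNSC 4, 6 without qNSC 3 or pNSC 3, 5 without qNSC 1, and 4 without qNSC 2, qNSC 4 or pNSC 2.

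Regional patterning factors, which mark where along the ventricle a stem cell lies, were called lower in 6 of 24 cases and higher in 2 (25% and 8.33%, median -0.43). Nkx2-2, a ventral homeobox factor, had 2.23, 2.65, 2.81 and 3.19 in pNSC, against 5.12, 4.27, 4.65 and 4.43 in qNSC. Nkx6-2, another ventral factor, had 3.02, 4.09, 4.56 and 4.84 in pNSC, against 6.66, 6.12, 5.98 and 6.07 in qNSC. Crym, a thyroid hormone binding protein, had 8.18, 9.04, 9.35 and 9.38 in pNSC, against 10.09, 10.07, 10.15 and 10.18 in qNSC. These 3 stayed called without any 1 library, and pNSC 1 was the lowest library for each. Nkx6-2 is also on the oligodendrocyte marker list and Nkx2-2 on the oligodendrocyte precursor list. Whether their differences came from stem cells or from such cells was not tested. Gli3 (-0.77), a Hedgehog pathway factor, Dbx2 (-0.93) and Hopx were called lower, and Gsx2 was among those called higher. Nkx2-2 overlaps Nkx2-2os and cannot be told apart from it here. The lower count was 3 without qNSC 2, qNSC 4 or pNSC 2, and the higher count was 1 without any 1 of the 4 qNSC libraries, pNSC 2 or pNSC 3.

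Circadian genes gave 4 lower calls of 17 and none higher (23.5%, median -0.35). Hlf, a clock-output transcription factor, had 5.54, 5.76, 6.17 and 6.85 in pNSC, against 7.82, 7.26, 7.44 and 7.45 in qNSC. It was called in every fit without 1 library. Dbp (-0.77), Cry2 (-0.65) and Rorb (-0.38) lost the call in most. The count was 2 without qNSC 1 or pNSC 3 and 1 without qNSC 2, qNSC 3, qNSC 4 or pNSC 2, and it was 0 with neither trend nor robust estimation of the spread. Times of dissection were not used here.

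**Figure D4:**
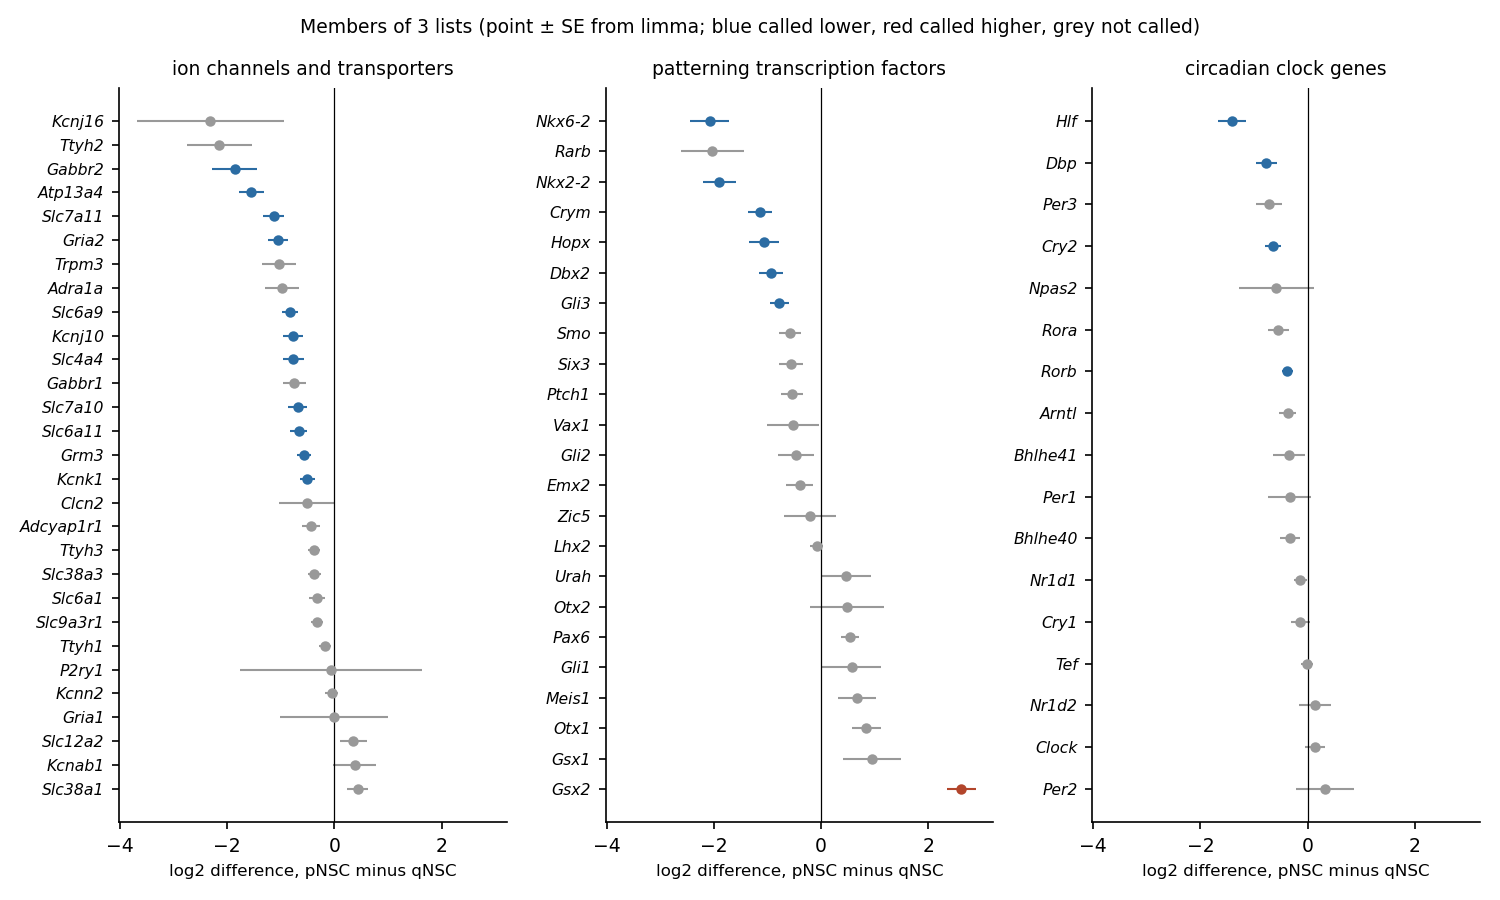
Log2 difference, pNSC minus qNSC, of members of 3 lists (point ± SE from limma), sorted by difference; blue called lower, red called higher, grey not called. Most transporters and clock genes lie below 0, and Gsx2, at 2.62, stands opposite to Nkx6-2, at -2.08.

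Wnt pathway genes moved in both directions, 4 of 25 higher and 4 lower (median 0.08). Notum, a secreted enzyme that inactivates Wnt ligands, had 8.46, 8.84, 8.80 and 8.41 in pNSC, against 5.98, 6.98, 6.98 and 6.51 in qNSC, a 4.05-fold higher level (adjusted p 0.00245 by limma). Ctnnb1 (1.45), which encodes beta-catenin, and Nkd1 (1.56), a feedback inhibitor, were also called in every fit without 1 library, and Lef1 (2.74), a partner of beta-catenin on DNA, in 3 of 8. The receptors Fzd9 (-1.64) and Lgr4 (-1.01), the ligand Wnt7a (-0.93) and the DNA-binding partner Tcf7l2 (-0.64) were called lower. The lower count was 1 without qNSC 1 or pNSC 2 and 0 without qNSC 2, qNSC 3, qNSC 4 or pNSC 3. Notum overlaps Notumos, and without strand their reads cannot be told apart.

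In the EGF receptor family, the receptor and 1 ligand were called higher and a pair of ligands lower. Egfr, whose protein marks activated stem cells, had 7.75, 7.41, 7.40 and 7.73 in pNSC, against 7.02, 7.04, 7.05 and 7.02 in qNSC, a difference of 0.54 ± 0.13 (SE, adjusted p 0.0289 by limma). The ligands Tgfa (-1.44) and Hbegf (-1.13) were called lower and the ligand Nrg1 (1.88) higher. Of the feedback inhibitors, Spry1 (3.35) was called higher and Spry4 (-2.27) lower. In all, 3 of 22 were called each way. The higher count was 0 without qNSC 3, qNSC 4 or pNSC 2. The lower count was 5 without pNSC 4, 1 without qNSC 1, qNSC 2, qNSC 4 or pNSC 3, and 0 without qNSC 3.

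BMP and TGF-beta signals, which promote quiescence, gave 1 higher and 2 lower calls of 25 (4% and 8%). These small counts lie near the shares over all genes, 5.78% and 3.77%. The ligands Bmp7 (-1.56) and Tgfb2 (-0.96) were lower and the receptor Tgfbr1 (1.38) higher. Id1 and Id3, targets of BMP signals, differed by 0.22 and -0.10 with adjusted p of 0.516 and 0.748. The higher count was 0 without qNSC 2, qNSC 3 or pNSC 2, and the lower count was 0 without qNSC 3 or qNSC 4 and 1 without qNSC 1, qNSC 2, pNSC 1, pNSC 2 or pNSC 3. Among transcription factors linked to quiescence, Foxo6 (1.96), Nfix, Bmi1 (1.01) and Chd7 (0.76) were called higher and Klf9 (-0.76) lower, of 19. Each of these 5 lost the call in at least 4 of 8 fits without 1 library. The higher count was 1 without qNSC 2 and 0 without qNSC 3, qNSC 4, pNSC 2 or pNSC 3. The lower count was 2 without pNSC 1 and 0 without any of the qNSC libraries or pNSC 3. Of 26 adhesion and matrix genes, Tnc (1.58), a matrix glycoprotein of the niche, was called higher and Cdh20 (-1.11), a cadherin, lower. Each is 3.85% of the list, near the shares over all genes. Tnc was not called without qNSC 4, pNSC 2 or pNSC 3, and the lower count was 6 without pNSC 4 and 0 without qNSC 3 or qNSC 4.

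Of 28 splicing factors, 20 were called higher and none lower (71.4%, median 0.82). Hnrnpab had 9.47, 8.66, 8.67 and 8.37 in pNSC, against 7.26, 7.34, 7.23 and 7.26 in qNSC. Every qNSC library lay at least 1 log2 unit below the lowest pNSC library. Hnrnpa1 (1.94), Hnrnpu and Hnrnph1 (0.91) were called in every fit without 1 library. The count was 19 without both libraries 1, 13 without qNSC 3, 11 without pNSC 2, and 5 with neither trend nor robust estimation of the spread.

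Of 32 ribosome biogenesis genes, 14 were called higher and none lower (43.8%, median 0.74). They include Fbl (1.44), the methyltransferase of ribosomal RNA, and the nucleolar proteins Ncl (0.89), Npm1 (0.96) and Nop56 (0.86). Fbl had 5.42, 5.04, 4.88 and 4.63 in pNSC, against 3.48, 3.63, 3.41 and 3.70 in qNSC. The count was 9 without qNSC 2 or pNSC 1, 5 without qNSC 3, 6 without qNSC 4 or pNSC 3 and 2 without pNSC 2.

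Of 80 cytosolic ribosomal protein genes, 79 had a higher mean in pNSC, 19 were called higher and none lower (23.8%, median 0.60). Rpl4 had 8.45, 8.11, 8.23 and 7.74 in pNSC, against 7.06, 7.31, 7.17 and 7.16 in qNSC, and it was called in every fit without 1 library. The count for this list was 11 without both libraries 1, and each single library moved it: to 34 without pNSC 4, 8 without qNSC 1, 7 without pNSC 1, 6 without qNSC 2, 4 without qNSC 3, and 2 without qNSC 4, pNSC 2 or pNSC 3. Ribosomal protein genes, like Npm1 and Eef1a1, have many near-identical processed copies in the genome, so their values are uncertain. Of 24 translation factors, 7 were called higher and none lower (29.2%, median 0.36), among them Eif4a1 (1.19), Eef1a1 (0.99) and Eif4g2 (0.97). That count was 4 without qNSC 2 or pNSC 3 and 3 without qNSC 3, qNSC 4 or pNSC 2.

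Chaperones were called higher in 15 of 21 cases and lower in none (71.4%, median 0.66). Hspa5, the chaperone of the endoplasmic reticulum, had 10.18, 10.13, 9.81 and 9.55 in pNSC, against 9.06, 9.05, 9.09 and 9.10 in qNSC. Hsph1 (1.45), Hsp90aa1 (1.00) and Hspa8 (0.52), cytosolic heat shock proteins, were called in every fit without 1 library. The count was 15 without both libraries 1, 7 without qNSC 3, 9 without qNSC 4 and 6 without pNSC 2, and it was 2 with neither trend nor robust estimation of the spread. Of 25 proteasome subunits, Psmb2 (0.59) and Psmd1 (0.53) were called higher (8%, against 5.78% of all genes). None was called without any 1 library other than pNSC 4, where 5 were.

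Chromatin genes were called higher in 11 of 29 cases and lower in none (37.9%, median 0.63). Hmgb2, a DNA-bending protein of dividing cells, had 8.70, 7.79, 8.17 and 7.13 in pNSC, against 5.99, 5.89, 6.19 and 6.03 in qNSC. Hmgb3 (1.79), the histone variant H2afz (1.82) and the maintenance DNA methyltransferase Dnmt1 (2.14) were also called in every fit without 1 library. The count was 12 without both libraries 1, 7 without qNSC 3 or qNSC 4 and 6 without pNSC 2.

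Energy metabolism gave few calls, though most glycolysis and fatty acid genes had a lower mean in pNSC. The 34 nuclear-encoded respiratory chain genes had a median of -0.06. Atp5b (0.43), a subunit of ATP synthase, was called higher (2.94% of the list, against 5.78% of all genes). It was not called without qNSC 3, qNSC 4 or pNSC 2, and 2 were called without pNSC 4. None of 9 mitochondrially encoded transcripts (median -0.19) and none of 22 cholesterol synthesis genes (median -0.22) was called by limma, here as in the 8 fits without 1 library. At an unadjusted p under 0.05, 2 of the 9 and 4 of the 22 were lower, and none was higher. Of all genes, 29.7% reached that level in either direction. Of 22 glycolysis genes, Pfkp (-0.91), the platelet-type phosphofructokinase, and Gpi1 (-0.41) were called lower and none higher. At the same unadjusted level, 9 of the 22 glycolysis genes were lower and none higher. Groups did not overlap in 9 of them, with pNSC lower, against 11.7% of all genes. Pfkp had 6.81, 6.74, 6.92 and 7.47 in pNSC, against 8.08, 7.77, 7.79 and 7.92 in qNSC, and stayed called without any 1 library. The lower count of glycolysis genes was 5 without pNSC 4, 4 without pNSC 1 and 1 without any 1 of the 4 qNSC libraries, pNSC 2 or pNSC 3. Of 28 fatty acid genes, 3 had a higher mean in pNSC. At that unadjusted level 12 of the 28 were lower and 1 higher. Groups did not overlap in 9 with pNSC lower and in 1 with pNSC higher. The fatty acid carrier Fabp7 (0.56) was called higher and the acyl-CoA ligase Acsbg1 (-0.42) lower. Each is 3.57% of the list, against 5.78% higher and 3.77% lower of all genes. Neither was called without qNSC 2, qNSC 3, qNSC 4, pNSC 2 or pNSC 3. Of 20 serine and one-carbon genes, Shmt1 (1.90), Impdh2 (1.11) and Ctps (2.67), which supply nucleotides, were called higher. That count was 1 without qNSC 3 and 0 without qNSC 4, pNSC 1, pNSC 2 or pNSC 3. Of 30 lysosome genes, the cholesterol exporter Npc1 (-0.86) was called lower (3.33%, against 3.77% of all genes). It was not called without any of the qNSC libraries, pNSC 2 or pNSC 3, and 4 were called without pNSC 4.

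Inflammatory lists gave no call. By limma, no member passed among 24 TNF and NF-kB genes (median 0.00) or 22 interferon and antigen presentation genes (median -0.40). At an unadjusted p under 0.05, 2 of the 24 were higher and 2 lower, and of the 22 none was higher and 4 were lower. The share of all genes at that level was 29.7% in either direction. Of 18 p53 targets, Btg2, Cdkn1a and Gtse1 (3.51) were called higher, and each also belongs to an immediate early or cell cycle list. That count was 1 without pNSC 2 or pNSC 3.

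**Figure D5:**
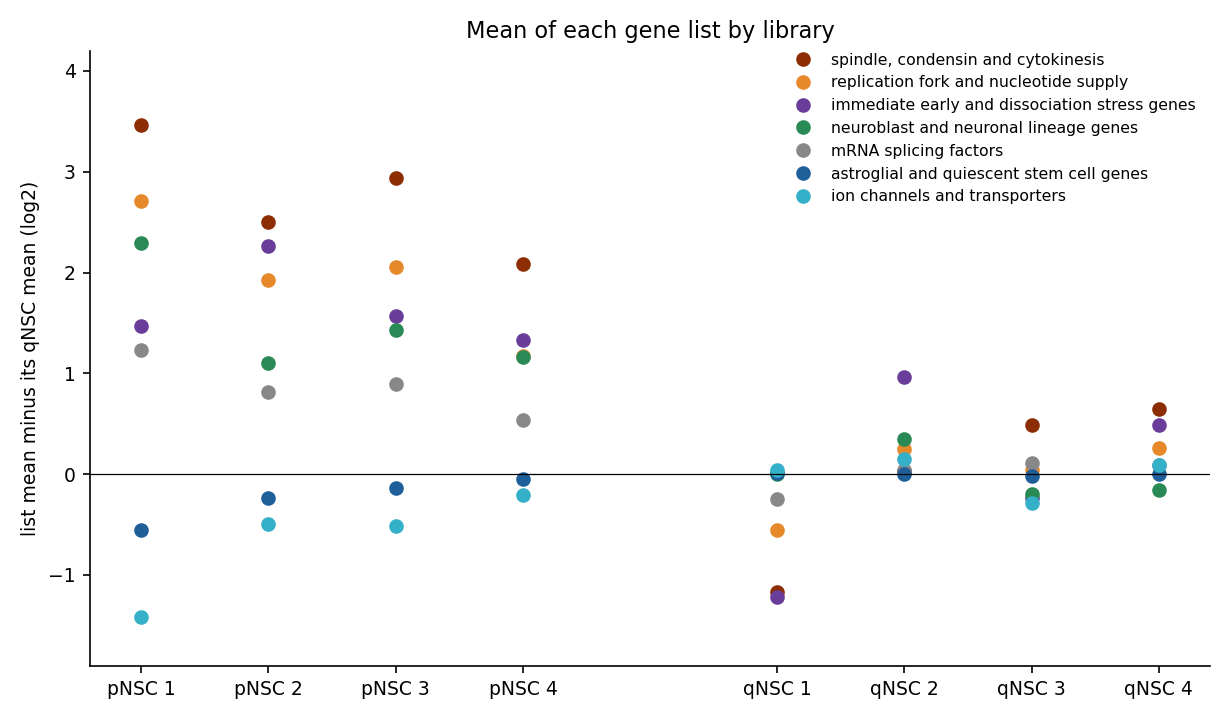
Mean of 7 gene lists in each library, minus the list's qNSC mean (vertical axis, log2), pNSC libraries left and qNSC libraries right; each point is 1 library. The spindle list is highest in pNSC 1 and lowest in qNSC 1, and the immediate early list is highest in pNSC 2 and, within qNSC, in qNSC 2.

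Of 10 surface antigen genes tested, Cd24a and Egfr were called higher and none lower. Cd24a, which encodes an antigen of neuroblasts, had 7.49, 5.71, 6.20 and 6.03 in pNSC, against 5.34, 4.81, 4.42 and 3.98 in qNSC, a difference of 1.72 (adjusted p 0.0271 by limma). Neither Cd24a nor Egfr was called without qNSC 2, qNSC 3 or qNSC 4, and 1 of the pair was called without pNSC 2 or pNSC 3. Cd9 and Prom1, which encode a tetraspanin and prominin 1, differed by -0.13 and 0.52 with adjusted p of 0.427 and 0.196. The gates are not given here, so it is not known which of these antigens were used in the sort.

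Markers of other cell types were present in both groups. Endothelial markers (8 tested) summed to 894 to 1183 in pNSC and 1249 to 1477 in qNSC on the linear scale, and mural markers (5 tested) to 27.6 to 156 in pNSC and 136 to 178 in qNSC. Mature neuron markers (14) summed to 404 to 630 in pNSC and 733 to 915 in qNSC, and ependymal markers (14) to 88.5 to 162 in pNSC and 184 to 249 in qNSC. Oligodendrocyte markers (13) summed to 580 to 750 in pNSC and 715 to 1032 in qNSC, and those of their precursors (11) to 85.6 to 153 in pNSC and 95.9 to 156 in qNSC. The sums of endothelial, neuron and ependymal markers were lower in all pNSC libraries than in any qNSC library, but the mean log2 values of these lists overlapped. The neuron mean was 3.58 in pNSC 2 and 2.63 in qNSC 4, and the ependymal mean 2.60 in pNSC 2 and 2.27 in qNSC 2. The endothelial mean was 3.70 in pNSC 4 and 3.58 in qNSC 2. Groups did not overlap, with pNSC lower, in 1 of 8 endothelial, 3 of 14 neuron and 3 of 14 ependymal markers, against 11.7% of all genes. Of all these markers, Nkx6-2, Nkx2-2 and the ependymal marker Rarres2 (-0.97) were called lower, and none was called higher. By limma at an unadjusted p under 0.05, 2 endothelial, 3 mural, 3 oligodendrocyte, 1 precursor, 3 ependymal, 3 neuron and 3 erythroid markers were lower. At the same level, 1 precursor, 1 ependymal and 1 neuron marker were higher, and 29.7% of all genes reached it in either direction. All 3 erythroid markers lay at the floor in pNSC 3 and pNSC 4. The part of such cells in the genes called lower in pNSC was not tested. Xist and the 4 Y-linked transcripts tested were above the floor in all 8 libraries, and none was called by limma or reached an unadjusted p under 0.05.

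Clusters of genes that share exons moved as blocks, noticed after their values were seen. Of 14 protocadherin alpha entries, 13 were called higher by 2.24 to 2.69, and their values correlated with r of at least 0.939 over the 8 libraries. All 9 Ugt1a entries, glucuronosyltransferases, were called lower by -1.18 to -1.01, with r of at least 0.995. Their shared exons make each block close to 1 measurement rather than 13 or 9.

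Across the other sorted populations, most genes called higher in pNSC had a still higher mean elsewhere, as did most of all genes tested. Among the 914, 21 (2.3%) had their highest population mean in pNSC, against 3.68% of all genes tested. Notum was among the 21, with 8.63 ± 0.223 in pNSC, 7.32 ± 0.514 in aNSC, the population named activated stem cells, and 6.61 ± 0.475 in qNSC (SD, n = 4 each). Mki67 averaged 8.03 in aNSC and Nptx2 7.98, both above their pNSC means of 6.08 and 6.98. Among the 597 called lower, 568 (95.1%) had their highest mean in qNSC, against 28.7% of all genes. Crym averaged 8.99 in pNSC, 4.04 in aNSC and 10.12 in qNSC, and Gabbr2 averaged 5.19 in pNSC, -0.45 in aNSC and 7.05 in qNSC. These shares use the same pNSC and qNSC libraries as the calls and are given as a description.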

How the data were processed

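RNA of 36 libraries was deposited as 1 table of log2 values for 19909 genes. The authors' log2 values resemble log2 CPM: 2 raised to them sums to nearly the same total in every library. Low values are tied within a library and differ between libraries, with floors from -4.73 in qNSC 4 to -2.18 in qNSC 1. High values are shared by rank, as quantile normalization would leave. Such scaling hides differences in total RNA and gives tied values. Per the submitters' processing notes, FastQC, cutadapt, Trimmomatic, HISAT2, featureCounts and limma were used with GRCm38 (mm10); the sources used here give no versions. Amplification of poly(A) RNA, per the labels' protocols, was with a SMARTer kit, which does not mark strand, so overlapping genes (9796 of those tested) cannot be separated. Read totals are not in the table, so depth is unknown and no counting interval is given.

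Genes at 0 or above in 3 or more libraries of pNSC or qNSC were tested with limma 3.58.1 in R 4.3.3 (trend and robust) on the 8 libraries, with Benjamini-Hochberg adjustment over 15824 genes and calls at an adjusted p under 0.05. Of 19909 genes, 19863 matched GENCODE M21. On simulated data, 25 of 50 genes changed by -2, 11 of 50 by -1, 12 of 50 by 1 and 31 of 50 by 2 were called, with 2 false calls among 15624 genes. Those data were independent normal draws with 1 spread per gene for all 8 libraries. They held no floors, ties or libraries that stood apart, so these rates need not hold for the real data. Named genes were Mki67, Cdkn1a, Cdkn1b, Slc1a3, Egfr, Cd24a, Cd9 and Prom1, the 12 largest changes each way under the limits stated with them, up to 4 called members of each list with the smallest p each way, and members given to account for exceptions; others are said to be chosen after their values were seen or stand as uncalled members of a family. The comparison and the 52 gene lists were chosen with earlier results of these data known. Alternatives were other spread estimates, filters and centring, a replicate block, each library left out in turn, and, chosen after seeing the data, both libraries 1 left out. Some members of the lists are counted but not reported here by name.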

Additional observations from a re-analysis of the deposited data

Results flagged for a closer look

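In groups of 4 libraries, 12 of 172 sets of values held a library whose gap to the nearest other exceeded the critical share of the range of Dixon's test at 95%, and chance flags about 1 in 20 groups. Library 1 of qNSC was the lowest of its group for Pbk (-0.01), Top2a (2.02) and Cdca2 (-0.01), and for the mean of the licensing list (3.07), the lysosome list (7.20) and the p53 target list (2.56). The same library was the highest of its group for Olfml2a (6.27). Library 1 of pNSC was the highest for Kif18b (5.34), the lowest for the mean of the Notch list (4.65), and the lowest in mean correlation with its own group (0.881). In pNSC 3 the respiratory chain mean was the highest of its group (7.70), and in qNSC 3 Gabbr2 was the lowest (6.40).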

How the results depend on the processing

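Calls depended strongly on how the spread was estimated. With all 8 sorted populations in 1 fit, 4016 genes were called (2514 higher, 1502 lower), of which 1288 were among the 1511. With library weights there were 2930 (1506 higher, 1424 lower), 51.4% of them higher against 60.5% in the reported fit. With neither trend nor robust there were 405 (289 higher, 116 lower), 71.4% higher. No filter gave 1223, values below 0 set to 0 gave 1948, and centring gave 1513 calls, each within 1.5 times the reported count. With only genes of a mean of at least 4 there were 1776 calls, 49.9% of them higher. Centring left 3556 genes whose groups do not overlap, against 3551.

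Leaving out 1 library gave 357 to 2135 calls, with 285 to 1103 higher and 72 to 1032 lower. The lowest counts were without pNSC 2 (357), qNSC 3 (425), qNSC 4 (471), pNSC 3 (633) and qNSC 2 (651), and the highest was without pNSC 4 (2135). Calls toward pNSC made up 84.1% without qNSC 4, 82.8% without qNSC 3, 79.8% without pNSC 2, 78.8% without qNSC 2 and 71.4% without qNSC 1. Without both libraries 1 there were 1593 calls. A replicate block gave 756 calls (509 higher, 247 lower). The labels do not say what a number shares: deviations of same-numbered libraries correlated at 0.060, 0.088, 0.062 and 0.092, all under 0.1, so the numbers were not taken as pairs, although each pNSC library correlated best with its own number. For 31 named genes, 427 values kept direction and call, 87 kept direction but lost the call, 1 gained it and 0 reversed. The causes were not tested. Depth is unknown and limits the lowest genes most, above all in qNSC 1.

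For 17 list counts recomputed under each alternative, 15 moved by over 1.5 times with neither trend nor robust, 7 with a replicate block, 6 with all 8 populations fitted and 4 with library weights. With neither trend nor robust, the genes called higher were 22 of the spindle list, 9 of the kinetochore list, 8 of the fork list, 5 of the licensing list, 12 of the neuroblast list, 7 of the activated list, 5 of the splicing list, 4 of the immediate early list and 2 of the chaperones. In that fit 3 ion channels and transporters, 2 patterning factors, 0 circadian genes and 0 astroglial genes were called lower. With the replicate block, 8 ion channels and transporters, 5 patterning factors, 2 circadian genes and 0 astroglial genes were called lower.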
